A study of Mus musculus with 12 samples.

Results

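Apoe, Clu, Cst3, Sparc, Sparcl1, Cpe, Mt1, Mt2 and Mt3 are genes for secreted or metal-binding proteins that astroglia make in large amounts. They were taken by name from the deposited table of counts, as 9 of its 50600 gene identifiers, and were followed over the 12 libraries of 3 cell types. All 9 were found, and each had at least 579 counts in every library, so a filter on low counts removed none. Their names were chosen with earlier results of these data known, and the counts over the 9 genes are therefore read beside those over all genes.

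The cells came from the dentate gyrus of Nestin-GFP mice, in which a transgene places green fluorescent protein under the control of Nestin, a gene of neural stem and progenitor cells. The mice were 6 to 9 weeks old. Sorting first set aside dead cells and cells with surface markers of endothelium (CD31), leukocytes (CD45) or the oligodendrocyte lineage (O1 and O4). GLAST, the astroglial glutamate transporter encoded by Slc1a3, was then read together with GFP. Astrocytes were the cells with GLAST and no GFP, progenitors those with GFP and no GLAST, and cells with both signals were collected as stem cells. Each cell type gave 4 libraries of 50 cells, described by the study as biological replicates from separate mouse brains. The transgene was common to the 3 groups, and no group received a treatment. Stem cell libraries are numbered 1 to 4 as in the labels. The astrocyte and progenitor columns name no sample number, so those libraries are called a to d and cannot be paired across cell types.

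Astrocytes supply neurons and other glia with lipids, matrix proteins and metal buffering, and the products of these genes are parts of that supply. Apolipoprotein E and clusterin are carried on lipoprotein particles, cystatin C blocks cysteine proteases, and SPARC and hevin (the Sparcl1 product) are matricellular proteins that act on synapses and matrix. Carboxypeptidase E trims peptide hormones in secretory granules. Metallothioneins are small cysteine-rich proteins that bind zinc and copper, and the transcription factor MTF1 turns on Mt1 and Mt2 when zinc rises, through short metal response elements in their promoters. Mt3 is the form found mainly in the brain. The same genes are also known to be high in the radial glia-like stem cells of the dentate gyrus, which share much of their expression with astrocytes.

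Mt3, Mt2 and Mt1 lie within 27721 bases of each other on chromosome 8, all on the forward strand. The 300 bases around their annotated start sites, 250 before and 50 after, are shown because the 3 genes of this cluster were followed together. These windows held unlike numbers of matches to the metal response element. The sequences are from RefSeq on GRCm38.p6, at chr8:94178839-94179138 for Mt1, chr8:94172368-94172667 for Mt2 and chr8:94152357-94152656 for Mt3, each read 5′ to 3′ on the forward strand. Capitals mark matches to the core of the element, TGCACNC or TGCGCNC, on either strand.
Mt1: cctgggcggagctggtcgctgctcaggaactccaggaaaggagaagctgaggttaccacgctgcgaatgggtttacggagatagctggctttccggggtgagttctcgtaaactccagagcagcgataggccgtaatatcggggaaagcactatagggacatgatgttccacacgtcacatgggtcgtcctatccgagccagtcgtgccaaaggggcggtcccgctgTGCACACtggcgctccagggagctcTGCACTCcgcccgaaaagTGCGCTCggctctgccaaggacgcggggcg
Mt2: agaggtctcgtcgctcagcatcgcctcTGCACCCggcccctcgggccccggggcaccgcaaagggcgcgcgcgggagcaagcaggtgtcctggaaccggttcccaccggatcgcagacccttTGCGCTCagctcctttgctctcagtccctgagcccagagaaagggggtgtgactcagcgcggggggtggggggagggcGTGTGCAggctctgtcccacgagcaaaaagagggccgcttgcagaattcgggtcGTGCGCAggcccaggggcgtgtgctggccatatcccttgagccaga
Mt3: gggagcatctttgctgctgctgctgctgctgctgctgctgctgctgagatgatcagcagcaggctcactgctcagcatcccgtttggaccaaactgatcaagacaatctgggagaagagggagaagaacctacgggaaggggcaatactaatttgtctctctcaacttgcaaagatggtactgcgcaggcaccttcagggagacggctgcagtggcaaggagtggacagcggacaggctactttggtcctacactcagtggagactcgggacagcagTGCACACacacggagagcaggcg

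The Mt1 window held 3 matches, all on the forward strand. The Mt2 window held 4 matches, 2 on each strand, and the Mt3 window held 1. Counted from the annotated start, the matches began at −23, 2 and 20 in Mt1. They began at −223, −128, −50 and 4 in Mt2 and at 27 in Mt3. Bases outside these windows were not searched, so the numbers hold for the windows only. Of 32851 windows of the same length over all genes, 25.7% held at least 1 match, 1.969% held at least 3 and 0.5175% held at least 4. The windows of Apoe, Cst3 and Sparc held 0 matches, and Clu, Sparcl1 and Cpe had no window in the table, so that 6 of the 9 genes could be searched. A match of these letters is a description of the sequence and was not tested as a binding site.

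Total counts per library were 5357232 to 6253680 in astrocytes, 9041498 to 12535028 in progenitors and 5031166 to 10435711 in stem cells. Levels are given as CPM, the counts per 1000000 of a library size corrected by the trimmed mean of M values (TMM), which allows for libraries that differ in composition. The reads carried no molecular identifiers, so intervals from counting alone would be too narrow, and the SD over the 4 libraries of a group is given. The 12 astrocyte markers in the list used, such as Aldoc and Slc1a3, were detected in all libraries, with a summed level of 22785 to 28309 CPM in astrocytes, 10247 to 13388 CPM in progenitors and 31644 to 41450 CPM in stem cells. The progenitor libraries thus held the markers too, at a lower summed level. Slc1a3 itself stood at 2235 to 3403 CPM in the cells sorted as lacking GLAST protein, against 3797 to 6158 CPM in astrocytes. In pools of 50 cells, fewer cells of an astroglial type and less RNA per cell cannot be told apart.

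The 9 genes together took 6.25 ± 1.15% of the counts in astrocytes, 3.72 ± 0.712% in progenitors and 9.42 ± 0.967% in stem cells (mean ± SD, n = 4). The 4 libraries of progenitors lay between 2.79% and 4.45%, below the lowest astrocyte library at 4.84%, and the stem cell libraries began at 8.63%, above the highest astrocyte library at 7.63%. Apoe alone was 2.77%, 1.77% and 4.27% of the counts in astrocytes, progenitors and stem cells. The 3 metallothionein genes together were 0.199%, 0.162% and 0.378%. The study called the cDNA quality of its astrocytes suboptimal. The most transcripts passed its filter in progenitors, then in stem cells, and the fewest in astrocytes. The TMM factors were 0.795 to 0.914 in astrocytes, 1.16 to 1.20 in progenitors and 0.931 to 1.07 in stem cells. The part of library quality in these shares and in the fold changes was not tested.

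**Figure D1:**
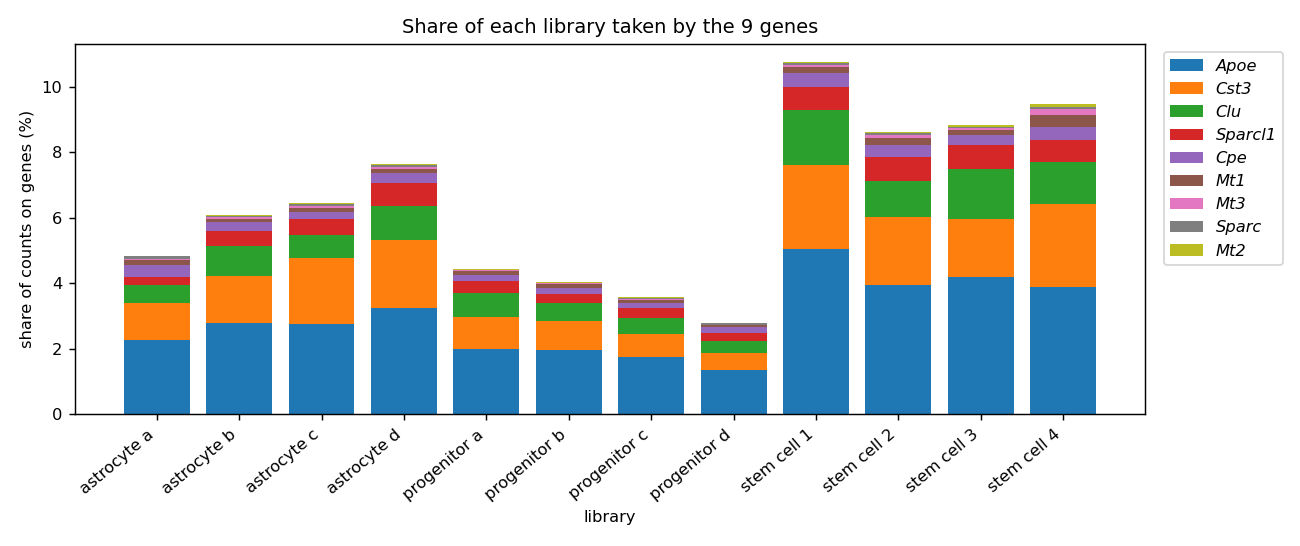
Share of the counts on genes (percent, y axis) taken by each of the 9 genes in the 12 libraries (x axis), stacked from 0. The stacks reach 4.84 to 7.63% in astrocytes, 2.79 to 4.45% in progenitors and 8.63 to 10.8% in stem cells, and Apoe, Cst3 and Clu make up most of each.

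Levels can be compared between genes only per length, here as CPM per kilobase of exonic sequence. That length joins the exons of all annotated transcripts of a gene. For Mt1 it is 1246 bases, which is the gene from end to end, and for Mt2 it is 588 bases. Ranks and ratios per length therefore depend on the annotation. Among 21764 protein-coding genes ranked on this scale, Apoe and Cst3 held ranks 1 to 3 in every library. Clu ranked 3 to 9, Sparcl1 4 to 22, Cpe 10 to 26 and Mt1 6 to 27 over the 12 libraries. Mt2 ranked 13 to 73 and Mt3 10 to 123. Sparc was the least abundant, with ranks of 133 to 339 in astrocytes and stem cells and 369 to 3652 in progenitors. Apoe and Cst3 were close to each other on this scale, with an Apoe to Cst3 ratio of 1.03 ± 0.183 in astrocytes, 1.39 ± 0.191 in progenitors and 1.15 ± 0.203 in stem cells, whereas Apoe exceeded Clu 5.68 ± 0.888, 5.50 ± 0.739 and 4.98 ± 0.566 times in the same order.

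Progenitors had the lowest mean of the 3 cell types for each of the 9 genes, and in 8 of the 9 the stem cells had the highest. Sparc had its highest mean in astrocytes. Differences were tested with the quasi-likelihood test of edgeR on the counts, with p-values adjusted by Benjamini-Hochberg across the genes that entered the fit, and a gene is said to have risen or fallen where the adjusted p was under 0.05. The 3 comparisons share libraries, since each cell type enters 2 of them, and their values are set side by side without a test between them.

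Apoe (ENSMUSG00000002985), on the reverse strand of chromosome 7 at 19696109-19699188 (GRCm38), encodes the main lipid carrier of the brain. It stood at 28675, 31689, 32008 and 35660 CPM in astrocytes a to d. In progenitors a to d it stood at 17170, 16416, 14615 and 11380 CPM. In stem cells 1 to 4 it stood at 54175, 40166, 44878 and 36244 CPM. No 2 groups overlapped, stem cells being the highest and progenitors the lowest. Apoe was 2.15 times higher in astrocytes than in progenitors (log2 fold change 1.10, SE 0.13, edgeR adjusted p = 0.0027) and fell by 1.59 on the log2 scale in progenitors against stem cells (SE 0.16, edgeR adjusted p = 0.00065). The difference between astrocytes and stem cells, −0.46 with a 95% interval of −0.73 to −0.19, did not pass after adjustment (edgeR adjusted p = 0.16).

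Clu (ENSMUSG00000022037), on the forward strand of chromosome 14 at 65968483-65981547, encodes clusterin, an apolipoprotein and extracellular chaperone. Its level was 7044, 10546, 8112 and 11456 CPM in astrocytes a to d. Progenitors a to d had 6284, 4556, 3962 and 3112 CPM. Stem cells 1 to 4 had 17883, 11213, 16389 and 11933 CPM. Progenitors lay below both other groups, while the highest astrocyte library was above the lowest stem cell library. The log2 fold change was 1.05 (SE 0.23, edgeR adjusted p = 0.019) for astrocytes over progenitors and −1.72 (SE 0.23, edgeR adjusted p = 0.0023) for progenitors over stem cells. For astrocytes over stem cells it was −0.63, with a 95% interval of −1.06 to −0.20 (edgeR adjusted p = 0.23).

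Cst3 (ENSMUSG00000027447), on the reverse strand of chromosome 2 at 148871722-148875692, encodes cystatin C, a secreted inhibitor of cathepsins. Astrocytes a to d had 13971, 16511, 23253 and 22521 CPM. Progenitors a to d had 8506, 7513, 5971 and 4128 CPM, and stem cells 1 to 4 had 27301, 21252, 19047 and 23828 CPM. Astrocytes and stem cells overlapped, and progenitors lay below both. Of the 6 secreted protein genes Cst3 had the largest estimated fall in progenitors against stem cells, by 1.85 on the log2 scale (SE 0.22, edgeR adjusted p = 0.0012), and it was 2.93 times higher in astrocytes than in progenitors (log2 fold change 1.55, SE 0.24, edgeR adjusted p = 0.0098).

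**Figure D2:**
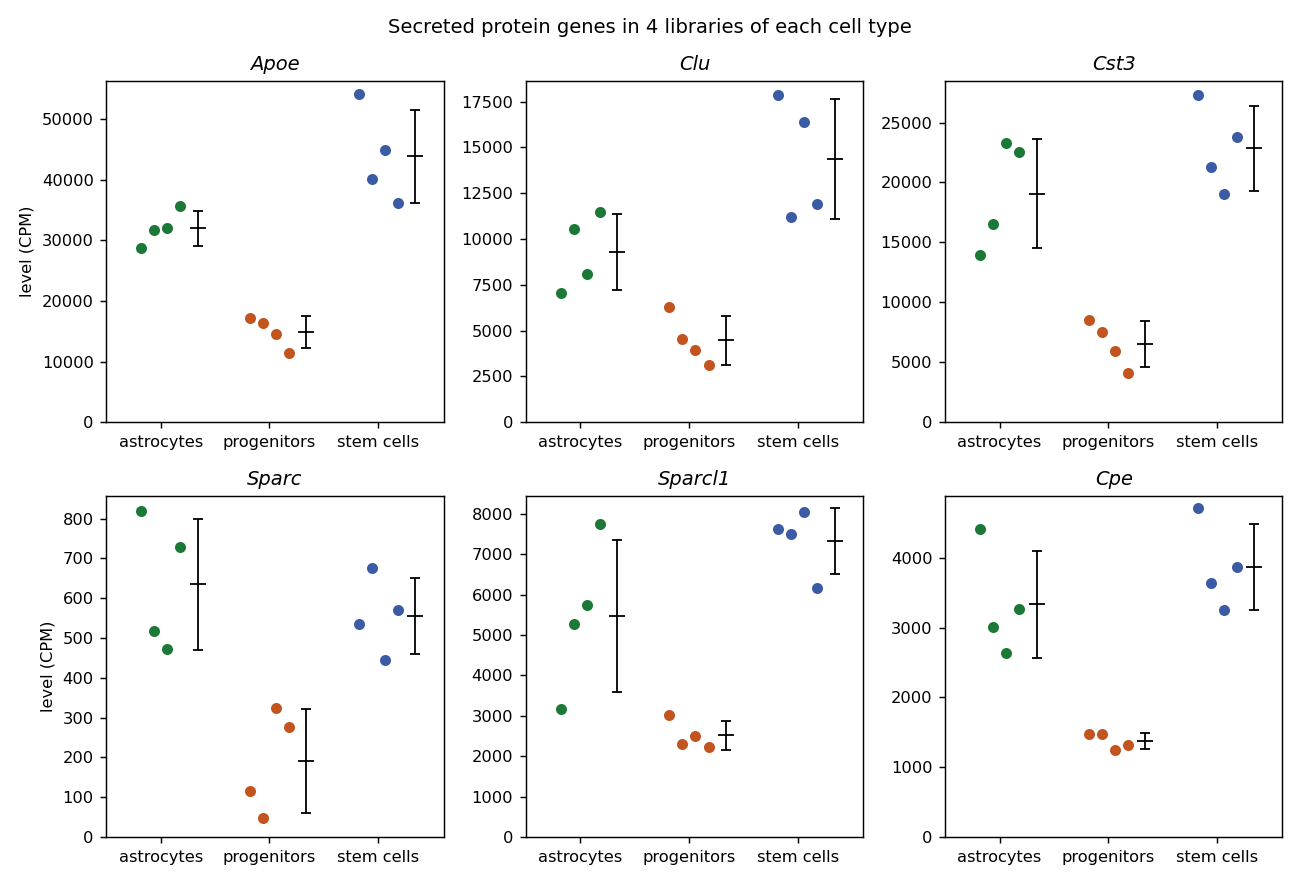
Level (CPM, y axes from 0 with a scale for each panel) of the 6 secreted protein genes in the 4 libraries of each cell type (x axis), with points in the order of the library names and the mean ± SD in black. Progenitor libraries lie below the libraries of both other cell types in all 6 panels, and the Sparc panel shows the widest progenitor spread, from 48.4 to 325 CPM.

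Sparcl1 (ENSMUSG00000029309), on the reverse strand of chromosome 5 at 104079111-104113733, encodes hevin, an astrocyte protein that promotes excitatory synapses. Its levels in astrocytes a to d were 3162.98, 5269, 5746 and 7750 CPM. They were 3027, 2306, 2500 and 2234 CPM in progenitors a to d, and 7631, 7502, 8050 and 6157 CPM in stem cells 1 to 4. Astrocyte a was only just above the highest progenitor library. Sparcl1 rose in astrocytes over progenitors (log2 fold change 1.13, SE 0.25, edgeR adjusted p = 0.020) and fell by 1.58 on the log2 scale in progenitors against stem cells (SE 0.14, edgeR adjusted p = 0.00033).

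Sparc (ENSMUSG00000018593), on the reverse strand of chromosome 11 at 55394500-55423183, encodes a collagen-binding matricellular protein that opposes the synapse-forming action of hevin. Astrocytes a to d had 819, 519, 474 and 728 CPM, and stem cells 1 to 4 had 535, 675, 445 and 570 CPM. Progenitors a to d had 115, 48.4, 325 and 276 CPM. The progenitor libraries did not overlap with the others, but they spread more among themselves (68.4% of their mean) than in any other group of the 9 genes. Neither difference passed the test: the log2 fold change was 1.72 with a 95% interval of 0.54 to 2.91 for astrocytes over progenitors (edgeR adjusted p = 0.083), and −1.58 with an interval of −2.68 to −0.48 for progenitors over stem cells (edgeR adjusted p = 0.084). Both passed with DESeq2 (adjusted p = 0.044 and 0.0090).

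Sparc is also made by pericytes and other vascular cells, and the 10 mural cell markers moved among the progenitor libraries. Their summed level was 3008, 318, 2876 and 1367 CPM in progenitors a to d, against 57.7 to 221 CPM in astrocytes and 109 to 137 CPM in stem cells. Vtn, the most abundant of them, stood at 944, 1.25, 1517 and 782 CPM in progenitors a to d. The mural sum also holds Cspg4, at 260 to 571 CPM in progenitors, which is among the oligodendrocyte precursor markers used below as well. Progenitor b, the lowest in mural markers, was also the lowest in Sparc, and progenitor c was the highest in Sparc, while progenitor a had the highest mural sum with little Sparc. Without progenitor b the log2 fold change of Sparc was 1.41 for astrocytes over progenitors (edgeR adjusted p = 0.098) and −1.24 for progenitors over stem cells (edgeR adjusted p = 0.072). The part of mural cells in the Sparc level was not tested. Per length, Sparcl1 exceeded Sparc 4.98 to 15.6 times in astrocytes, 9.92 to 61.5 times in progenitors and 13.9 to 23.4 times in stem cells.

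Cpe (ENSMUSG00000037852), on the reverse strand of chromosome 8 at 64592542-64693054, encodes carboxypeptidase E, which removes basic residues from cleaved prohormones. Its levels in astrocytes a to d were 4418, 3013, 2638 and 3276 CPM. Progenitors a to d had 1474, 1473, 1244 and 1312 CPM, the tightest group of the 9 genes at 8.46% of the mean, and stem cells 1 to 4 had 4721, 3649, 3252 and 3874 CPM. Cpe was 2.41 times higher in astrocytes than in progenitors (log2 fold change 1.27, SE 0.18, edgeR adjusted p = 0.0063) and fell by 1.53 on the log2 scale in progenitors against stem cells (SE 0.15, edgeR adjusted p = 0.00047). Astrocytes and stem cells overlapped, with a log2 fold change of −0.22 and a 95% interval of −0.66 to 0.21.

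Mt1 (ENSMUSG00000031765), at 94179082-94180327 on chromosome 8, was the most abundant metallothionein gene, also per length. Astrocytes a to d had 1871, 1126, 1449 and 1222 CPM, and progenitors a to d had 1097, 1031, 839 and 541 CPM. Stem cells 1 to 4 had 1915, 2168, 1625 and 3301 CPM. The progenitor libraries lay below all others, the nearest astrocyte and progenitor libraries being 1126 and 1097 CPM. Mt1 fell by 1.40 on the log2 scale in progenitors against stem cells (SE 0.28, edgeR adjusted p = 0.012), whereas the log2 fold change of 0.69 for astrocytes over progenitors, with a 95% interval of 0.10 to 1.28, did not pass (edgeR adjusted p = 0.18).

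Mt3 (ENSMUSG00000031760), at 94152607-94154146 on chromosome 8, encodes the brain metallothionein, first described as a growth inhibitory factor. Its levels were 682, 581, 699 and 605 CPM in astrocytes a to d and 339, 299, 305 and 186 CPM in progenitors a to d. Stem cells 1 to 4 had 759, 802, 681 and 1767 CPM. Stem cell 4 stood apart from its group, and astrocyte libraries overlapped with the lowest stem cell library. Of the 3 metallothionein genes only Mt3 passed the test in astrocytes over progenitors (log2 fold change 1.18, SE 0.27, edgeR adjusted p = 0.021), and whether the genes differ in this change was not tested. In progenitors against stem cells it fell by 1.87 on the log2 scale (SE 0.34, edgeR adjusted p = 0.0082), and by 1.43 without stem cell 4 (edgeR adjusted p = 0.0074).

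Mt2 (ENSMUSG00000031762), at 94172664-94173568 on chromosome 8, encodes a ubiquitous metallothionein. Astrocytes a to d had 238, 228, 316 and 273 CPM, and progenitors a to d had 230, 251, 191 and 141 CPM. Stem cells 1 to 4 had 415, 487, 385 and 832 CPM. Astrocytes and progenitors overlapped, and stem cells lay above both. The log2 fold change was 0.38 with a 95% interval of −0.33 to 1.09 for astrocytes over progenitors (edgeR adjusted p = 0.61), a direction that turned to −0.086 when only library totals were used for scaling and to −0.20 with at least 100 counts asked in each library. Mt2 fell by 1.43 on the log2 scale in progenitors against stem cells (SE 0.29, edgeR adjusted p = 0.013).

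Mt2 shares its locus with Gm45774, an annotated gene on the opposite strand, which overlaps 73.47% of its exonic bases. The counting did not use strand, and Gm45774 had 97.3 to 100.2% of the counts of Mt2 in the 12 libraries. The overlap is 16.21% of the 2665 exonic bases of Gm45774. Reads within the shared bases cannot be told apart, and every value of Mt2 above could hold both. The part of Gm45774 in the Mt2 counts was not tested. The other 8 genes had no exonic overlap with another gene and shared no stretch of 75 bases with another gene's transcripts.

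**Figure D3:**
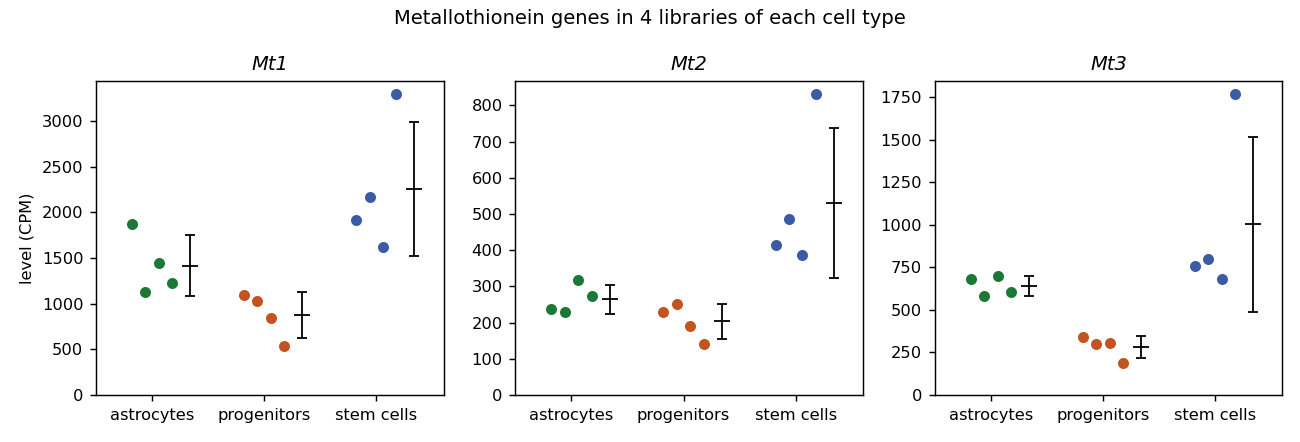
Level (CPM, y axes from 0 with a scale for each panel) of Mt1, Mt2 and Mt3 in the 4 libraries of each cell type (x axis), with points in the order of the library names and the mean ± SD in black. Stem cell 4 is the highest library in all 3 panels, at 3301, 832 and 1767 CPM.

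The proportions of the metallothionein genes differed between cell types in some ratios and overlapped in others. Per length, the Mt3 to Mt2 ratio was 1.36 ± 0.173 in astrocytes, 0.770 ± 0.0977 in progenitors and 1.02 ± 0.111 in stem cells (n = 4), and the 3 groups did not overlap, with ranges of 1.22 to 1.58, 0.657 to 0.882 and 0.909 to 1.17. The Mt1 to Mt3 ratio was 1.88 ± 0.316, 2.64 ± 0.269 and 2.03 ± 0.308 in the same order. In that ratio the progenitors lay above both other groups, at 2.36 to 2.95 against at most 2.35, while astrocytes and stem cells overlapped. The Mt1 to Mt2 ratio was 2.58 ± 0.759, 2.02 ± 0.188 and 2.04 ± 0.133 in the same order. All groups overlapped in it, and astrocyte a was the highest at 3.71. These ratios were not tested, and those with Mt2 include whatever Gm45774 adds to Mt2. The size of each ratio also depends on the exonic lengths used, which are the same for all libraries. Mt4, the remaining gene of the cluster and known from stratified epithelia, had 0 counts in all 12 libraries, which allows a level of up to 0.239 to 0.596 CPM of the unscaled totals. Mtf1, the metal-sensing factor, varied from 1.83 to 159 CPM in astrocytes, from 9.03 to 35.2 CPM in progenitors and from 13.6 to 49.3 CPM in stem cells, and the groups overlapped.

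In astrocytes over progenitors, 6 of the 9 genes rose and 0 fell, beside 2.45% of 14806 genes tested that rose and 6.18% that fell. The libraries did not overlap in 8 of the 9, all higher in astrocytes, beside 5.84% of all genes higher and 15.2% lower without overlap. The median log2 fold change of the 9 genes was 1.13, against 0.03 over all genes tested. With DESeq2 7 of the 9 passed, beside 6.43% of all genes higher and 9.99% lower. The calls and their sizes depended on the count filter and the scaling. With at least 10 counts asked in each library 3 of 9 passed (median 0.78), beside 191 of 5862 genes higher and 96 lower. With at least 100 counts 1 passed (median 0.57), beside 234 of 2776 genes higher and 140 lower. On library totals alone 3 passed (median 0.68), beside 155 of 14806 genes higher and 1030 lower. Leaving out progenitor c left 3 calls, beside 147 of 15468 genes higher. Leaving out progenitor b or d left 4, beside 178 of 15462 and 153 of 15441 genes higher (edgeR, same threshold).

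In progenitors over stem cells, 8 of the 9 genes fell and 0 rose, beside 3.66% of 15427 genes tested that fell and 4.95% that rose. All 9 were lower in every progenitor library than in any stem cell library, which held for 7.5% of all genes, while 11.8% were higher without overlap. The median of the 9 was −1.58, against 0.04 over all genes tested. The log2 fold changes lay in a narrow range, from −1.87 for Mt3 to −1.40 for Mt1. Sparc was the gene not called, and DESeq2 called all 9, beside 6.69% of all genes lower and 8.83% higher.

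In astrocytes over stem cells, 0 of the 9 genes passed with edgeR, and 0 with DESeq2. The background was 0.0468% of 12831 genes higher and 0% lower with edgeR, and 2.81% higher and 2.14% lower with DESeq2. At an unadjusted p under 0.05, 4 of the 9 (Apoe, Clu, Mt1 and Mt2) were lower in astrocytes, beside 4.35% of all genes. The libraries did not overlap for Apoe and Mt2, beside 6.28% of all genes lower and 3.69% higher without overlap. The 9 log2 fold changes ran from −1.02 for Mt2 to 0.18 for Sparc with a median of −0.46, against 0.14 over all genes. For Mt2 the 95% interval was −1.75 to −0.28 (edgeR adjusted p = 0.28), and for Sparc it was −0.43 to 0.79.

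**Figure D4:**
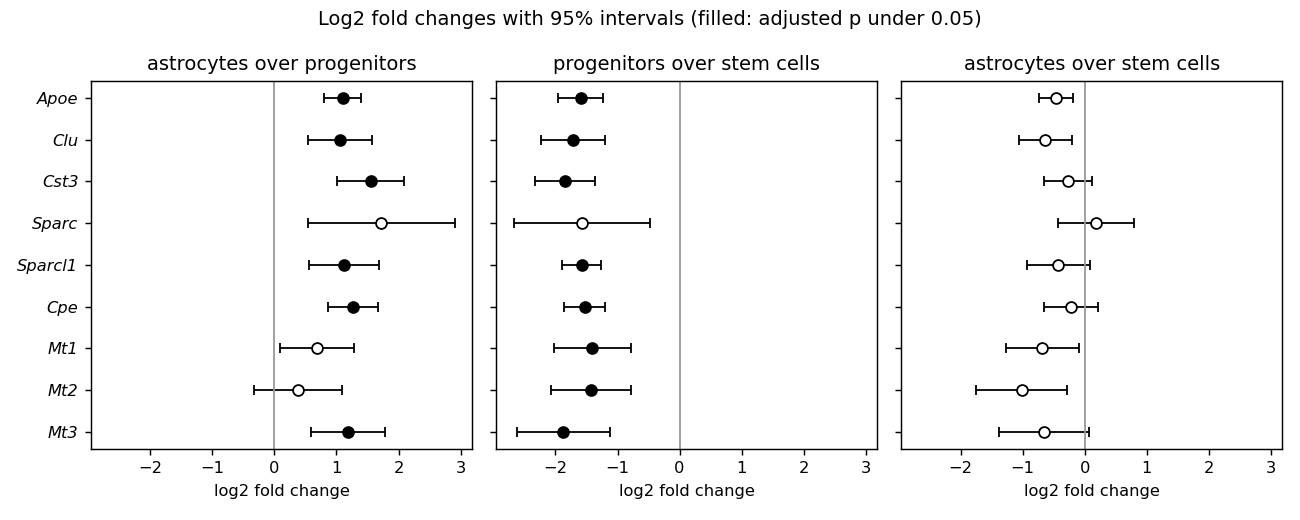
Log2 fold change (x axis) of the 9 genes (y axis) in the 3 comparisons, with bars for the 95% interval from edgeR and filled points for an adjusted p under 0.05. Points lie right of 0 in astrocytes over progenitors with 6 filled, left of 0 in progenitors over stem cells with 8 filled, and around −0.46 with 0 filled in astrocytes over stem cells.

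Genes that work with the 9 were taken from lists by function, leaving the 9 out. Over all genes tested, 4.95% rose and 3.66% fell in progenitors over stem cells, and 2.45% rose and 6.18% fell in astrocytes over progenitors. The list counts were not tested against these shares. The list of other secreted astroglial genes also held a membrane receptor gene, Ntsr2. Of the 21 genes in that list, 11 fell in progenitors over stem cells and 0 rose, with a median of −1.07. They included Agt (angiotensinogen, log2 fold change −2.87), Itih3 (a hyaluronan-binding protein, −1.86) and Mfge8 (a phagocytosis bridging protein and the most abundant of the list, −1.72). In astrocytes over progenitors 3 of the 21 rose, namely Fjx1 (2.54), Itih3 (2.02) and Pla2g7 (a lipoprotein-associated phospholipase, 1.15).

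Cathepsins are the proteases that cystatin C and its relatives inhibit. Of 11 tested genes of the cystatin and cathepsin list, 6 fell in progenitors over stem cells, 0 rose and 5 were not called, with Ctsz (−1.24), Ctso (−1.22) and Ctsf (−0.94) changing most and Ctsb the most abundant (604 ± 56.9 CPM in progenitors and 940 ± 177 CPM in stem cells). In astrocytes over progenitors 0 of 11 passed, with a median log2 fold change of 0.05. The shares over all genes were 3.66% lower and 4.95% higher in progenitors over stem cells.

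The lipoprotein list was mixed. In progenitors over stem cells 1 of 17 genes rose and 2 fell, beside 4.95% and 3.66% of all genes tested. Sorl1, a sorting receptor that binds apolipoprotein E, fell by 1.41 on the log2 scale there, and rose in astrocytes over progenitors (log2 fold change 1.88, edgeR adjusted p = 0.040), the only one of 15 genes tested to do so. Abcg1, a cholesterol exporter that loads lipid onto such particles, went the other way, with 94.6 to 134 CPM in progenitors and 0, 8.99, 0.125 and 0 CPM in stem cells 1 to 4. Apoc1, a neighbour of Apoe in the genome, had 7.25 to 18.2 CPM in stem cells and 0 to 1.03 CPM in progenitors.

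Among 10 tested relatives of Sparc and other matricellular genes, 2 rose in progenitors over stem cells and 0 fell. The shares over all genes were 4.95% and 3.66%. Tnr, which encodes tenascin-R, stood at 146 to 299 CPM in progenitors and at 0.130 to 10.6 CPM in stem cells. Spock1 stood at 4.90 to 14.03 CPM in progenitors with 0 counts in the stem cell libraries. Of the prohormone genes, Scg3, a granule protein, followed the direction of Cpe, rising in astrocytes over progenitors (log2 fold change 1.08) and falling by 1.34 on the log2 scale in progenitors over stem cells. Pcsk2, the convertase that cuts prohormones before carboxypeptidase E acts, was highest in progenitors, at 9.19 to 38.3 CPM against 0.408 to 1.70 CPM in astrocytes and 0 to 0.103 CPM in stem cells. Scg5, the Pcsk2 chaperone, rose in progenitors over stem cells (log2 fold change 1.27). In all, 2 of 10 genes of that list rose and 1 fell in progenitors over stem cells, beside 4.95% and 3.66% of all genes. In astrocytes over progenitors 1 of 11 rose and 1 fell, beside 2.45% and 6.18% of all genes.

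Of 28 other genes for zinc, copper and iron handling, 3 rose and 2 fell in progenitors over stem cells. Over all genes tested, 4.95% rose and 3.66% fell. The ferritin chains moved apart. Fth1, the heavy chain, fell by 1.13 on the log2 scale (924 ± 77.6 against 1976 ± 211 CPM), while Ftl1, the light chain, rose by 0.85 (1544 ± 163 against 835 ± 156 CPM). Ferritin genes are known for processed copies elsewhere in the genome, so these counts are uncertain. Slc39a12, a zinc importer of astrocytes, fell by 1.77, whereas the zinc importer Slc39a6 rose by 2.59. Cp, which encodes the copper oxidase ceruloplasmin, stood at 64.1 to 105 CPM in progenitors and at 0 to 2.35 CPM in stem cells. In astrocytes over progenitors 1 of 28 passed, Fth1 (log2 fold change 2.25), whose astrocyte levels of 9772, 3320, 2929 and 1808 CPM differed widely. In astrocytes over stem cells 0 genes of these 6 lists passed with edgeR, beside 0.0468% of 12831 genes higher and 0% lower.

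Markers of other cells moved with the cell types. Oligodendrocyte precursor markers summed to 2147 to 3617 CPM in progenitors, against 43.5 to 321 CPM in astrocytes and 76.9 to 144 CPM in stem cells, and all 8 of them were detected in each progenitor library. Neuron markers were highest in astrocyte a, at 5788 CPM against 665 to 2073 CPM in the other astrocyte libraries and at most 565 CPM in the other groups, led by Camk2a at 4052 CPM. Oligodendrocyte markers were highest in astrocyte a too, at 3205 CPM. Astrocyte a was the lowest astrocyte library in Apoe, Clu, Cst3 and Sparcl1 and the highest in Sparc, Cpe and Mt1. Without it the same number of the 9 genes, 6, passed in astrocytes over progenitors, beside 573 of 16176 genes higher and 1229 lower. Microglia markers, a source of Apoe and Cst3 in the brain, summed to 67.8 to 351 CPM in astrocytes, 46.2 to 67.1 CPM in progenitors and 82.4 to 147 CPM in stem cells. In the 4 astrocyte libraries 2 of the 12 microglia markers, Tmem119 and Tyrobp, were at 0, and in the 4 progenitor libraries 6 were. Astrocyte d had the highest sum, with C1qb at 138 CPM and C1qa at 67.6 CPM, and was also the highest astrocyte library in Apoe, Clu and Sparcl1. Without it, too, 6 of the 9 genes passed in astrocytes over progenitors, beside 453 of 16117 genes higher and 1418 lower. Endothelial markers reached at most 249 CPM. The part of these cells in the levels of the 9 genes was not tested.

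**Figure D5:**
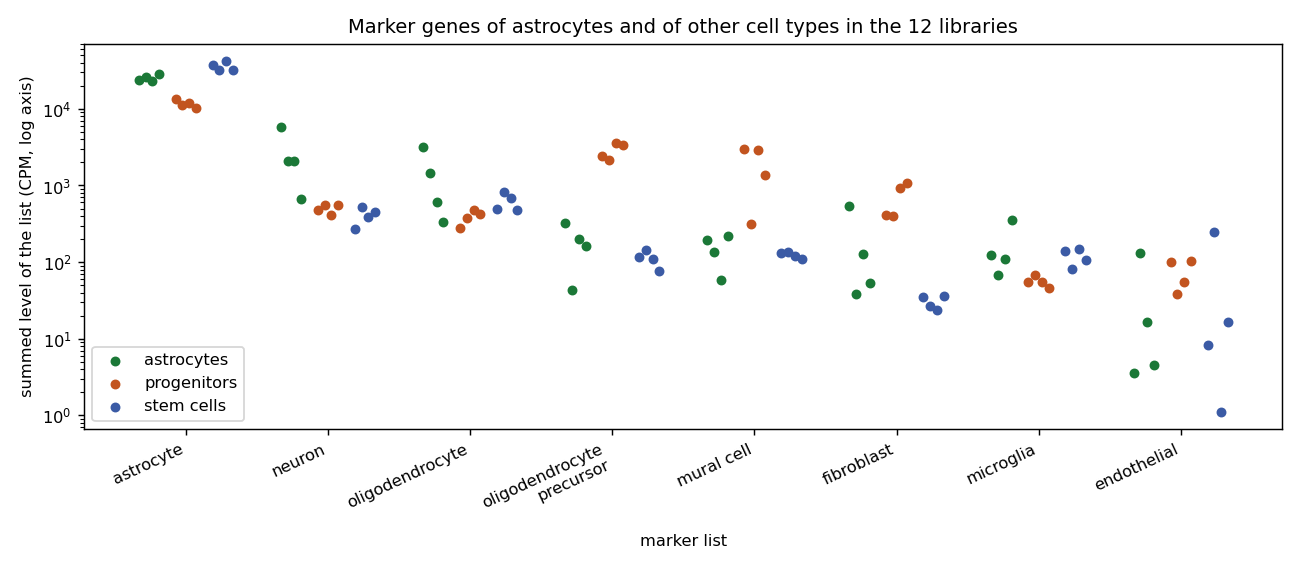
Summed level (CPM, log y axis) of marker gene lists (x axis) in the 12 libraries, coloured by cell type. Astrocyte markers are high in every library and lowest in progenitors at 10247 to 13388 CPM, and the oligodendrocyte precursor list is highest in progenitors, at 2147 to 3617 CPM.

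The genes most alike in pattern were sought among 5604 genes that reached 10 counts in all 12 libraries, by Pearson correlation of log2(CPM + 1). With 3 cell types of 4 libraries each, such correlations include the differences between cell types and are a description. Apoe was most like Pla2g7 (r = 0.980), Adhfe1 (r = 0.979) and Atp1b2 (r = 0.978), and Clu most like Atp1b2 (r = 0.982), Pla2g7 (r = 0.981) and Cd63 (r = 0.969). Pla2g7 encodes a secreted lipoprotein-associated enzyme, and Atp1b2 an astrocyte sodium pump subunit. Cst3 was nearest to Lsamp (r = 0.971), Cmtm5 (r = 0.964) and Fxyd1 (r = 0.957). Sparcl1 was nearest to Selenop, the selenium carrier (r = 0.978), then to Atp1b2 (r = 0.957) and the gap junction gene Gja1 (r = 0.955). Cpe was nearest to the glutamate transporter gene Slc1a2 (r = 0.944), Tmem47 (r = 0.940) and Tprkb (r = 0.940), and Sparc to Zfyve21 (r = 0.952), Ankrd24 (r = 0.933) and St6galnac5 (r = 0.894). Some of these genes overlap with genes on the other strand. The overlap was 15.45% of the exonic bases for Selenop, 11.5% for Tmem47, 10.98% for Pla2g7 and 8.93% for Tprkb. It was 4.07% for Adhfe1, 1.8% for St6galnac5 and 1.44% for Slc1a2. Reads within the overlap cannot be told apart. For the mean of the 6 secreted protein genes the nearest were Selenop (r = 0.970), Adhfe1 (r = 0.966) and Gstm1 (r = 0.963).

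The metallothioneins had other nearest genes. Mt1 was most like Gm10221, a processed pseudogene (r = 0.961), the respiratory chain gene Uqcr10 (r = 0.935) and Gm45774 (r = 0.921). Mt2 was most like Gm45774 (r = 1.00), which shares its reads, then Gm21954 (r = 0.933) and the pseudogene Atp5l2-ps (r = 0.913), both under 30 CPM in each group mean. Gm21954 has 51 exonic bases, of which 52.94% overlap Dclk1 on the other strand. Mt3 was most like Mir8114 (r = 0.973), Teddm2 (r = 0.949) and Cxcl14 (r = 0.938). Mir8114 lies wholly within exons of Glul, the glutamine synthetase gene. Teddm2 overlaps Glul and Mir8114 on the other strand over 2.73% of its exonic bases. Reads within the shared bases cannot be told apart. The mean of the 3 metallothioneins was nearest to Gm45774 (r = 0.959), Gm10221 (r = 0.945) and Mir8114 (r = 0.940). Gm45774 shares its reads with Mt2, which is part of this mean. The places of Gm45774 beside this mean and beside Mt1 therefore add nothing apart from Mt2.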

How the data were processed

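The authors deposited raw counts per gene for 12 libraries of 50 cells, whole numbers without normalization. Per their methods and processing notes, libraries were made with SMARTer and Nextera XT chemistry, reads were trimmed, cleared of ribosomal, mitochondrial and PhiX reads, aligned to GRCm38.p4 with HISAT2 2.0.6 (base calling with CASAVA 1.8.2) and counted on GENCODE genes with featureCounts, without strand. All columns of the counts table were used. Of 50600 identifiers, 50376 matched a symbol in GENCODE M21, which gave coordinates and overlaps.

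The members and gene lists were chosen with earlier results of these data known. edgeR 4.0.16 in R 4.3.3 was run on each pair of cell types (TMM, quasi-likelihood test, a minimum of 10 counts in 4 or more libraries, Benjamini-Hochberg threshold 0.05). The p-values measure the spread between libraries. The study used DESeq2 after its own transcript filter; DESeq2 1.42.0 was an alternative here, with other scalings, count filters, 1 fit over 12 libraries, thinned counts and each library left out in turn (with at least 10 counts asked in at least 3 libraries). The scripts were tested on simulated data. Named genes were the 9, per list and comparison up to 3 called genes of largest change and the most abundant gene, up to 3 abundant markers per list of other cells, Mtf1, Mt4, and the 3 genes most alike per pattern. Genes at 0 in a group were given as levels; a count of 0 was read as up to 3 counts. Progenitor, stem cell, fibroblast, ependymal, immediate early and glucocorticoid lists are summed in the closing section.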

Additional observations from a re-analysis of the deposited data

Results flagged for a closer look

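Mt3 in stem cell 4 stood at 1767 CPM, far above the other stem cell libraries, of which the nearest was at 802 CPM. The gap was 0.889 of the range of the group, above the 95% critical value of Dixon's test for 4 samples. Of 27 groups of 4 libraries looked at (9 genes in 3 cell types), this was the only one found, and chance alone picks out about 1 in 20 groups. Mt1 and Mt2 were also highest in stem cell 4, by 0.79 and 0.95 on the log2 scale over the mean of the group's other libraries, against 1.24 for Mt3. In the same library, genes with under 1 kb of exonic sequence (Mt2 among them) were higher by a median of 0.10, and the medians were −0.14 for genes of 1 to 2 kb (Mt1 and Mt3 among them), −0.30 for genes of 2 to 5 kb and −0.22 for longer genes. The part of gene length in the metallothionein levels was not tested. Apoe in stem cell 4 was at −0.36 on the same scale.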

How the results depend on the processing

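The number of the 9 genes passing in astrocytes over progenitors was 6, and moved to 3 with scaling on library totals alone, 3 with at least 10 counts asked in each library and 1 with at least 100, against 7 with DESeq2, 7 with all 12 libraries in 1 fit (Sparc added in both) and 5 without a count filter. With 1 library left out it ranged from 3 to 6, from 8 to 8 in progenitors over stem cells and from 0 to 0 in astrocytes over stem cells. In astrocytes over stem cells 3 genes (Apoe, Clu and Mt2) passed with at least 100 counts in each library, all lower in astrocytes. Beside them, 59 of 2608 genes tested were lower and 99 higher. In astrocytes over progenitors 528 of 16119 genes were higher with all 12 libraries in 1 fit, and 181 of 27810 without a count filter. The direction reversed for Mt2 in astrocytes over progenitors, to −0.086 with library totals alone and −0.20 with at least 100 counts in each library, and for Sparc in astrocytes over stem cells, to −0.062 with at least 100 counts. The cause was not tested. Of 216 single-gene values with all libraries kept, 193 kept direction and side of the threshold, 12 lost the call, 8 gained it and 3 reversed; of 216 with 1 library left out, 209 kept both and 7 lost the call. Scaling on library totals moved the median of all genes by −0.47 in astrocytes over progenitors, 0.33 in progenitors over stem cells and −0.17 in astrocytes over stem cells, and running without a count filter moved it by −0.22, 0.21 and 0.06. The share of calls that were higher was 28.4% in astrocytes over progenitors and 13.1% with library totals alone, 66.6% with at least 10 counts in each library and 62.6% with at least 100; in progenitors over stem cells it was 57.5%, 79.5%, 44.0% and 45.7%. The number of genes passing in those comparisons was 1278 and 1327; alternatives moved it by more than 1.5 times to 2431 and 2394 with DESeq2, to 529 without a count filter, 287 and 374 with at least 10 and 100 counts in each library in astrocytes over progenitors, and to 381 with all 12 libraries in 1 fit in progenitors over stem cells. In astrocytes over stem cells 6 genes passed, against 635 with DESeq2, 158 with at least 100 counts in each library and 346 with all 12 libraries in 1 fit. No paired analysis was possible because the astrocyte and progenitor columns carry no replicate numbers.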

Other observations

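Immediate early genes, which neurons and glia switch on within minutes of stimulation, summed to 3178 to 6363 CPM in the 4 progenitor libraries, against 45.6 to 111 CPM in astrocytes and 127 to 171 CPM in stem cells, with Fos at a mean of 2255 CPM in progenitors. Glucocorticoid-responsive genes, a class that shares inducers with Mt1 and Mt2, summed to 474 to 812 CPM in progenitors, 222 to 554 CPM in astrocytes and 329 to 462 CPM in stem cells. They were led by Dusp1 in progenitors (292 CPM, against 44.5 CPM in stem cells) and Nfkbia in the others. Sgk1 was also higher in progenitors than in stem cells (75.5 against 0.026 CPM). Tsc22d3 (53.6 against 101 CPM) and Pdk4 (19.9 against 51.3 CPM) were lower. Of 10 tested, 2 rose in progenitors over stem cells and 0 fell, beside 4.95% and 3.66% of all genes. Their median log2 fold change was −0.11. The relation of this list to Mt1 and Mt2 was not tested. Markers of progenitors and immature neurons summed to 1859 to 3410 CPM in progenitors and to at most 535 CPM elsewhere. Stem cell markers summed to 1213 to 1681 CPM in stem cells, 561 to 1045 CPM in astrocytes and 647 to 956 CPM in progenitors. Fibroblast markers summed to 403 to 1090 CPM in progenitors, mostly Pdgfra, which oligodendrocyte precursors also express, and to at most 538 CPM elsewhere. Ependymal and choroid plexus markers summed to 337 to 460 CPM in progenitors, led by Enpp2, and to at most 157 CPM elsewhere.

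In astrocyte a, genes with under 1 kb of exonic sequence were higher than in the other astrocyte libraries by a median of 0.79 on the log2 scale. The medians were 0.62 for genes of 1 to 2 kb, 0.11 for genes of 2 to 5 kb and −0.09 for longer genes. In the same library Mt1 (1 to 2 kb) was at 0.56, and Cpe, Sparc and Sparcl1 (2 to 5 kb) were at 0.57, 0.51 and −0.98.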
